A study of Homo sapiens with 6 samples.

Results

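A probe set on an expression array is a group of short probes that together give 1 value, and some probe sets read the transcripts of more than 1 gene. The probe sets described here were all those, outside the array's control probe sets, to which the platform annotation gave more than 1 gene symbol or Entrez identifier. There were 1801 of them among 54613 probe sets, beside 41091 with 1 symbol and 11721 with none. The choice used the annotation alone and no measured value. They carried 2338 distinct symbols in 1100 combinations, and 1582 of the symbols had no probe set of their own on the array. A result for such a probe set belongs to its combination of genes and not to any 1 of them.

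The values came from 6 Affymetrix HG-U133 Plus 2.0 arrays, 3 of control cells and 3 of cells labelled S153E-RKIP. All were made from the 1833 subline of MDA-MB-231, a human breast cancer line. RKIP, the product of PEBP1, binds Raf-1 and restrains the kinase cascade to MEK and ERK, and S153E-RKIP is a mutant that the series describes as a stronger Raf-1 inhibitor. The series asked which genes respond to it. The S153E-RKIP cells were transduced with a lentiviral vector and kept under puromycin, and the control carried the vector alone. The labels do not say whether the control was kept under puromycin, whether either line was 1 clone, or how the samples called biological replicates were made, and p-values therefore reflect only how far these samples spread, in part perhaps for technical reasons. Levels are given as log2 RMA signal, and each difference is that of S153E-RKIP less control, on the same scale.

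Several kinds of gene arrangement put more than 1 symbol on a probe set. Paralogs are gene copies with near-identical sequence, such as SAA1 and SAA2 or the HLA-DRB genes, and a probe can hybridise to the transcript of each. Host genes hold a microRNA or small nucleolar RNA within their own transcript, as FADS1 does with MIR1908. Readthrough transcripts run from a gene into its neighbour, as SAA2-SAA4 does. In the last kind, overlapping or antisense transcripts share exons or genomic positions.

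Upstream or microRNA sequences of some genes on called probe sets are printed below. No probe sequences were among the sources used, so these letters do not show why a probe set is shared. The first set is the upstream sequence, 250 bases before the annotated start, of 3 HLA class II genes whose joint probe sets rose. It comes from RefSeq annotation of GRCh38.p14, on the minus strand of chromosome 6, at chr6:32589849-32590098 for HLA-DRB1, chr6:32530288-32530537 for HLA-DRB5 and chr6:32666658-32666907 for HLA-DQB1. Capitals mark CTGATTGG, the Y box of class II promoters, a motif searched on both strands after these windows had been seen.

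HLA-DRB1: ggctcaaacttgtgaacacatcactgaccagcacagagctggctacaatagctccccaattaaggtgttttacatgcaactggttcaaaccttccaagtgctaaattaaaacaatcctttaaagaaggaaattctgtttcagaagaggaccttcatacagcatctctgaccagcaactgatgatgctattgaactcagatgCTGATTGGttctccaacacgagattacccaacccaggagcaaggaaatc
HLA-DRB5: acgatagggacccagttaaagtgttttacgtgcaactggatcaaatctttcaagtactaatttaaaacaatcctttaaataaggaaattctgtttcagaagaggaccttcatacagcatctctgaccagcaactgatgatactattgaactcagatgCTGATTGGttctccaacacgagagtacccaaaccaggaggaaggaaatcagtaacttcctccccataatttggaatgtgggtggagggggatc
HLA-DQB1: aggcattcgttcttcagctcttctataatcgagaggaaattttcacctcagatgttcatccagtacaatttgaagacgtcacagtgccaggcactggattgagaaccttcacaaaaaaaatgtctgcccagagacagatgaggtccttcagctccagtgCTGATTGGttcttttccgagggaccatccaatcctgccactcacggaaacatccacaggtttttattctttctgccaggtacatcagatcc

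The match began 49 bases before the start in HLA-DRB1, 93 bases before it in HLA-DRB5 and 91 bases before it in HLA-DQB1. The motif was not particular to class II genes: among symbols of called probe sets it was also found on the minus strand 176 bases before the start in 1 of the 4 windows of SOD2 and 125 bases before it in SOD2-OT1. HLA-DRB1 and HLA-DRB5 were identical at 189 of 206 aligned bases (91.7%). Of 35116 promoter windows in the table, 3.81% held the motif on either strand. The sterol element core TCACNCCAC (0.883% of all windows) and the kappaB core (1.73%) were also searched on both strands and were in no window of the 18 symbols of called probe sets that have one. HLA-DRB4, SAA1 and SAA2 are among the 8 symbols without a window.

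The second set is from LEPROT and LEPR, 2 genes that share the upstream sequence below, on the plus strand at chr1:65420418-65420667. LEPR has several windows in the table, and 1 of them equals that of LEPROT at 250 of 250 bases.

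LEPROT: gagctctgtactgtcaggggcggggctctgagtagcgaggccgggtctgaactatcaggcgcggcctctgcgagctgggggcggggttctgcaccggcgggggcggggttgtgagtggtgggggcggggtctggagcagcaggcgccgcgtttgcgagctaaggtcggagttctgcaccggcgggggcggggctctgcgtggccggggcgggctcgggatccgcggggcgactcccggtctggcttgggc

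The third set is the mature microRNAs named on called probe sets, with the seed, bases 2 to 8 counted from the 5′ end, in capitals. MIR1908 lies within FADS1 on the minus strand of chromosome 11, at chr11:61815209-61815229 for the 5p arm and chr11:61815172-61815192 for the 3p arm. MIR6732 lies within ZC3H12A on the plus strand of chromosome 1, at chr1:37480235-37480254 and chr1:37480267-37480289.

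hsa-miR-1908-5p: cGGCGGGGacggcgauugguc
hsa-miR-1908-3p: cCGGCCGCcggcuccgccccg
hsa-miR-6732-5p: uAGGGGGUggcaggcuggcc
hsa-miR-6732-3p: uAACCCUGuccucucccucccag

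The 4 seeds differ from each other. Array probes of this kind are designed on the longer transcripts of host genes, so the values of these probe sets are no measure of the mature microRNAs. Of 155 microRNA symbols among the probe sets, 138 matched the RefSeq table, with 219 mature sequences and 199 distinct seeds.

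Before the comparison, the arrays were set against their labels. PEBP1, the gene introduced, had levels of 11.77, 11.73 and 11.77 in control replicates 1 to 3 and of 11.74, 11.64 and 11.61 in S153E-RKIP replicates 1 to 3. It did not pass the test (difference -0.093, SE 0.062, limma adjusted p = 0.550), and the sources used here do not give whether its probes read the introduced sequence. The source name of the S153E-RKIP arrays also speaks of an HMGA2 shRNA, and HMGA2 did not pass the test (difference -0.023, limma adjusted p = 0.902). The arrays are therefore called here by their label, which sets the sign of each difference. VIM, CD44, KRT8 and KRT18, which mark these mesenchymal-like cancer cells, had mean levels of 9.89 to 14.44. ESR1, PGR, ERBB2, EPCAM and CDH1, low in MDA-MB-231, had mean levels of 4.04 to 8.31. Mean levels were 3.93 to 6.32 for PTPRC, CD3E and CD14 of blood cells, 3.85 to 7.22 for endothelial markers and 4.39 to 8.23 for fibroblast markers. In a principal component analysis of the 1801 probe sets control and S153E-RKIP arrays separated on the first component (40.3% of the variance). On the second (26%), S153E-RKIP replicate 1 lay apart from the other arrays of its group. Leaving that array out gave 18 called probe sets, of which 15 were called with all arrays.

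Serum amyloid A, HLA class II, SOD2 and ZC3H12A probe sets rose in the arrays labelled S153E-RKIP, and FADS1, CYP51A1 and LEPR/LEPROT probe sets fell. In limma, with Benjamini-Hochberg adjustment over all 54613 probe sets, 18 of the 1801 shared probe sets (0.999%) had an adjusted p under 0.05, which is what called means below. The share over all probe sets was 1.05%, and over those with 1 symbol it was 1.2%. Called higher were 12 (0.666%, against 0.366% of all), and called lower were 6 (0.333%, against 0.685% of all). With each array centred on the same median the split was 12 higher to 11 lower. At least a 2-fold change was called in 5 (0.278%, against 0.19% of all). The shares of shared and of all probe sets were set side by side with no test of their difference. Groups did not overlap in 301 (16.7%, against 17.1% of all). An unadjusted p under 0.05, the measure given below for groups without a call, was found for 11.2% of the shared probe sets and 13.2% of all. The median difference was 0.010 over the shared probe sets and 0.010 over all. A bulk array cannot tell a change in RNA per cell from a change in the share of cells that hold it. With 3 arrays a group, the median standard error of a difference was 0.076 over the shared probe sets.

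**Figure D1:**
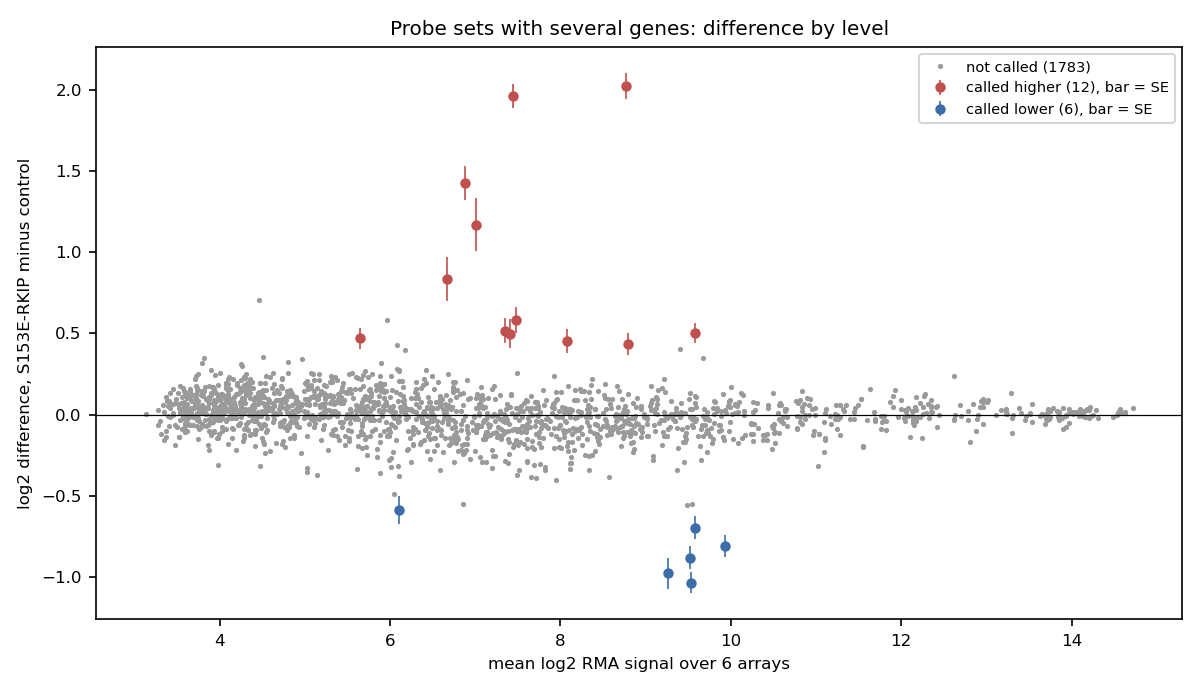
Log2 difference, S153E-RKIP minus control, against the mean log2 RMA signal over 6 arrays for the 1801 probe sets assigned to several genes. Grey points are the 1783 not called, red points the 12 called higher and blue points the 6 called lower, with bars of 1 SE. All called probe sets have a mean signal above the median of all probe sets, 5.62.

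The largest rises were in serum amyloid A, small secreted apolipoproteins of the acute phase response. The probe set of SAA1 and SAA2, 214456_x_at, had levels of 7.77, 7.75 and 7.73 in control replicates 1 to 3 and of 9.63, 9.91 and 9.79 in S153E-RKIP replicates 1 to 3. The groups were far apart, and the control arrays lay close together. The difference was 2.03 (SE 0.080, 4.07-fold, 95% confidence interval 1.84 to 2.21, limma adjusted p = 1.00e-05). The probe set that adds the readthrough SAA2-SAA4, 208607_s_at, had 6.50, 6.54 and 6.34 in control and 8.38, 8.41 and 8.49 in S153E-RKIP. Its difference was 1.96 (SE 0.073, limma adjusted p = 7.33e-06), the smallest adjusted p of any shared probe set. SAA4 with SAA2-SAA4, read by 207096_at, is the constitutively made relative. It had 5.56, 5.54 and 5.59 in control and 5.80, 6.01 and 5.62 in S153E-RKIP, and its difference of 0.25 did not pass the test (limma adjusted p = 0.328). Neither SAA1 nor SAA2 had a probe set of its own here, so which of the copies carried the rise cannot be told apart. The list of acute phase genes, chosen with earlier results known, had 12 shared probe sets. Its pattern also took in Fc gamma receptor genes. FCGR2A/FCGR2C, FCGR3A/FCGR3B and FCGR1A/FCGR1BP/FCGR1CP had differences of 0.22, 0.12 and 0.06, none called. Of the 12, 2 were called, both serum amyloid A, beside 1.05% called over all probe sets. The list's median difference was 0.07. ORM1/ORM2, C4A/C4B/C4B_2 and HP/HPR, other acute phase and complement genes, had differences of 0.02 to 0.08, and none was called.

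ZC3H12A encodes Regnase, an RNase that degrades inflammatory mRNAs. Its probe set with MIR6732, 218810_at, had 6.0, 6.34 and 6.16 in control and 7.43, 7.74 and 7.61 in S153E-RKIP. The lowest S153E-RKIP array was above the highest control array by more than the range of either group. The difference was 1.43 (SE 0.107, 2.69-fold, limma adjusted p = 0.000485). It kept its call without each array in turn. Neither ZC3H12A nor MIR6732 had a probe set of its own.

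HLA class II beta chains, which with an alpha chain present peptides to helper T cells, had 3 called probe sets. The probe set of HLA-DQB1, HLA-DRB1, HLA-DRB4 and HLA-DRB5, 209312_x_at, had 6.31, 6.60 and 6.36 in control and 7.18, 7.81 and 7.78 in S153E-RKIP. All S153E-RKIP arrays were above all controls, and replicate 1 was the lowest of its group. The difference was 1.17 (SE 0.161, 2.25-fold, limma adjusted p = 0.0117). The call was lost in limma without control replicate 1 (adjusted p = 0.10), without control replicate 3 (0.0881), without S153E-RKIP replicate 2 (0.0948) and without S153E-RKIP replicate 3 (0.0781). Without S153E-RKIP replicate 1 the difference was 1.37.

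With HLA-DRB3 in place of HLA-DRB5, the probe set 215193_x_at had 6.18, 6.44 and 6.13 in control and 6.77, 7.22 and 7.26 in S153E-RKIP (difference 0.84, SE 0.136, limma adjusted p = 0.0271). Again replicate 1 of S153E-RKIP was the lowest of its group and above all controls. The limma call was lost without control replicate 1 (adjusted p = 0.171), control replicate 2 (0.0592), control replicate 3 (0.157), S153E-RKIP replicate 2 (0.164) or S153E-RKIP replicate 3 (0.112). The probe set of HLA-DRB1 and HLA-DRB4, 204670_x_at, had 7.14, 7.27 and 7.16 in control and 7.63, 7.85 and 7.83 in S153E-RKIP (difference 0.58, SE 0.078, limma adjusted p = 0.0105). Its limma call was lost without control replicate 1 (adjusted p = 0.0834), control replicate 3 (0.0806), S153E-RKIP replicate 2 (0.0711) or S153E-RKIP replicate 3 (0.0619).

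The other HLA probe sets were dim. The one with 6 symbols, 221491_x_at, went from a mean of 4.09 to 4.40 (difference 0.31, limma adjusted p = 0.236). Differences were 0.12 for 238900_at, of HLA-DRB1, HLA-DRB3, HLA-DRB4 and HLA-DRB5, and 0.04 for 212671_s_at, of HLA-DQA1 and HLA-DQA2, whose levels stayed under 4. Together 3 of 6 HLA probe sets were called, all higher, beside 1.05% called over all probe sets. The median difference of the 6 was 0.45. Probe sets of single HLA genes were also on the array. HLA-DRB1 alone, 208306_x_at, had 6.67, 6.67 and 6.60 in control and 6.94, 7.35 and 7.09 in S153E-RKIP, without overlap, but was not called (difference 0.48, limma adjusted p = 0.0720). HLA-DRB4 alone had differences of 0.36, 0.22 and 0.12 in its 3 probe sets, none called. HLA-DQB1 alone had 7 probe sets with differences from -0.16 to 0.20, none called.

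SOD2, mitochondrial manganese superoxide dismutase, shares 4 probe sets with the overlapping transcript SOD2-OT1. The probe set 215223_s_at had 8.58, 8.57 and 8.57 in control and 9.0, 8.90 and 9.12 in S153E-RKIP (difference 0.43, SE 0.070, limma adjusted p = 0.0251). A second, 216841_s_at, outside the naming rule and chosen after its values were seen, had 7.77, 7.84 and 7.93 in control and 8.19, 8.35 and 8.36 in S153E-RKIP (difference 0.45, SE 0.074, limma adjusted p = 0.0272). In both, all S153E-RKIP arrays were above all controls. Another, 221477_s_at, also had no overlap but missed the threshold (difference 0.40, limma adjusted p = 0.0826), and 215078_at stayed between 3.66 and 3.98 on all arrays (difference 0.03). The probe set of SOD2 alone, 1566342_at, was called higher (difference 0.42, limma adjusted p = 0.0242). Neither shared call held in limma without control replicate 1 (adjusted p = 0.133 for 215223_s_at and 0.152 for 216841_s_at), control replicate 2 (0.131 and 0.142), control replicate 3 (0.135 and 0.0828) or S153E-RKIP replicate 3 (0.0701 and 0.102). 215223_s_at lost its call also without S153E-RKIP replicate 1 (limma adjusted p = 0.0775), and 216841_s_at without S153E-RKIP replicate 2 (limma adjusted p = 0.138).

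NF-kB is the transcription factor family that drives many inflammatory genes, and its list of known targets, chosen with earlier results known, had 9 shared probe sets. Of these, 4 were called, all higher, beside 1.05% called over all probe sets. They were both serum amyloid A and 2 of the SOD2 probe sets, so they stand for few genes. The list also held the other shared SOD2 probe sets given above, and its median difference was 0.43. BCL3 with MIR8085, where BCL3 is an atypical IkB protein, had 2 probe sets that were not called. 204908_s_at had 5.73, 6.01 and 5.86 in control and 5.75, 6.68 and 6.45 in S153E-RKIP (difference 0.43, limma adjusted p = 0.415), with replicate 1 among the controls. MIR155HG with MIR155, read by 229437_at, stayed between 3.27 and 3.39 on all arrays.

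**Figure D2:**
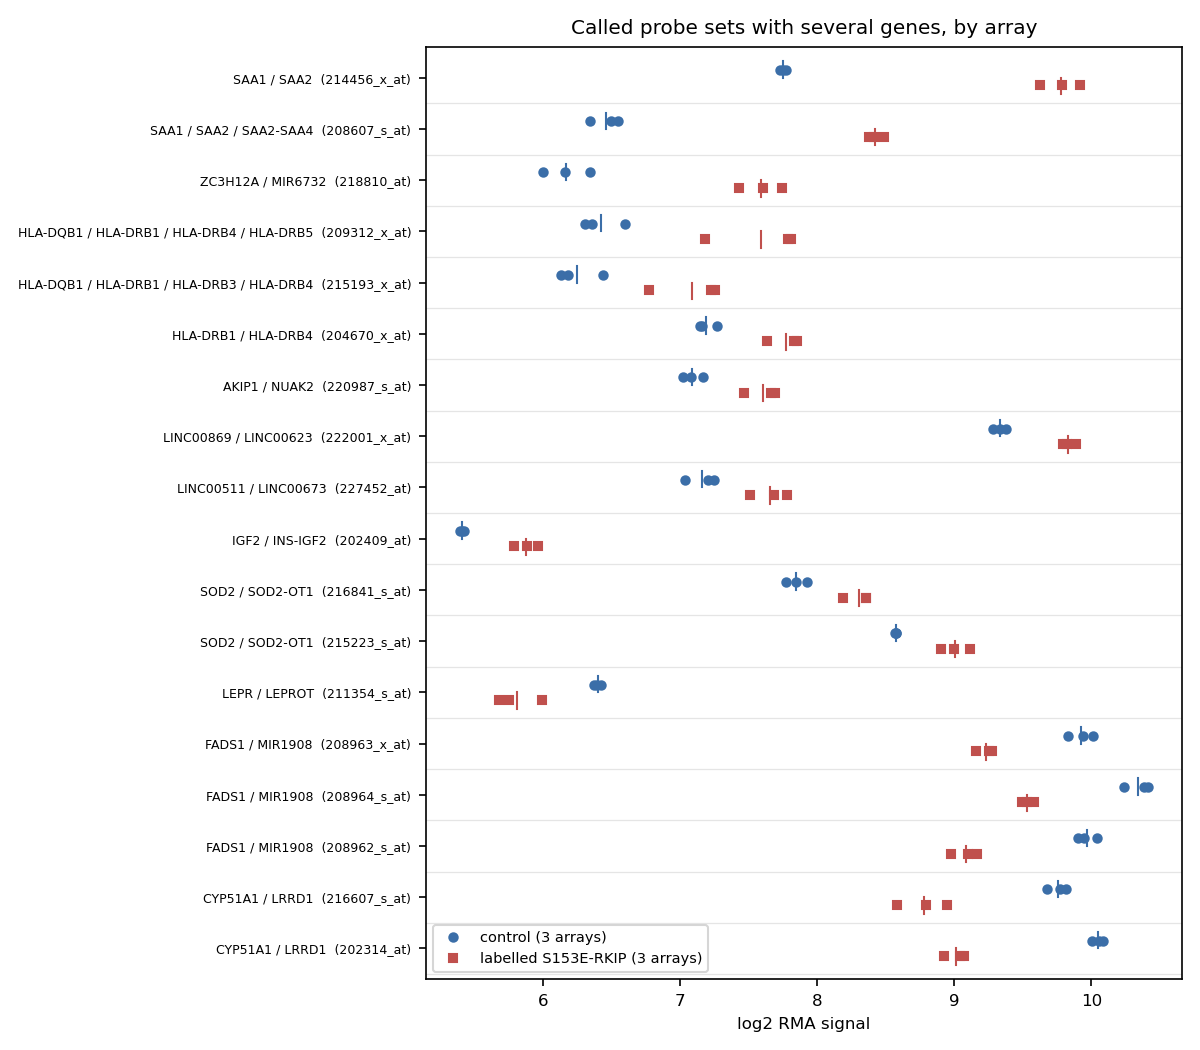
Log2 RMA signal (horizontal axis) of each called probe set on each of the 6 arrays, in order of the difference. Blue circles are the 3 control arrays, red squares the 3 arrays labelled S153E-RKIP and vertical ticks the group means. In none of the 18 do the groups overlap, and the gap is widest for the 2 serum amyloid A probe sets.

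The lower calls were led by lipid synthesis genes. CYP51A1 is the lanosterol demethylase of cholesterol synthesis and shares 2 probe sets with LRRD1, a leucine-rich repeat gene on the same chromosome. The probe set 202314_at had 10.05, 10.08 and 10.01 in control and 9.07, 8.93 and 9.04 in S153E-RKIP. The gap between the groups was far wider than either group's range. It fell by 1.04 on the log2 scale (SE 0.065, 2.05-fold lower, limma adjusted p = 0.000158). 216607_s_at had 9.77, 9.67 and 9.81 in control and 8.80, 8.58 and 8.95 in S153E-RKIP, and it fell by 0.98 (SE 0.096, limma adjusted p = 0.00208). The probe set of LRRD1 alone, 1569783_at, stayed between 3.40 and 3.61 on all arrays (difference 0.09). CYP51A1 had no probe set of its own.

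FADS1 encodes a desaturase that makes polyunsaturated fatty acids such as arachidonic acid, and MIR1908, whose arms are printed above, lies within it. All 3 of their shared probe sets fell. 208962_s_at had 10.04, 9.94 and 9.91 in control and 9.17, 8.98 and 9.10 in S153E-RKIP, and it fell by 0.88 (SE 0.073, limma adjusted p = 0.000824). 208964_s_at had 10.41, 10.38 and 10.24 in control and 9.49, 9.53 and 9.58 in S153E-RKIP, and it fell by 0.81 (SE 0.069, limma adjusted p = 0.000959). Both had gaps between the groups wider than the range within either. 208963_x_at had 10.01, 9.94 and 9.83 in control and 9.25, 9.16 and 9.28 in S153E-RKIP, and it fell by 0.70 (SE 0.071, limma adjusted p = 0.00263). These 5 calls of CYP51A1 and FADS1 were kept without each array in turn, as were those of serum amyloid A and ZC3H12A, 8 of the 18 in all.

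The list of cholesterol and fatty acid synthesis was chosen with earlier results known. Of its 8 shared probe sets 5 were called, all lower, beside 1.05% called over all probe sets. The list's median difference was -0.75. The 5 are those of CYP51A1 and FADS1, so they stand for 2 combinations of genes. The other 3 were not called. ELOVL1, an elongase of very long chain fatty acids, shares 2 probe sets with MIR6734, and each had a difference of -0.12. GTPBP4 with IDI2, an isopentenyl diphosphate isomerase, had -0.10.

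LEPR, the leptin receptor, and LEPROT, a small membrane protein encoded at the same locus, share the upstream sequence printed above and 6 probe sets. The probe set 211354_s_at had 6.37, 6.40 and 6.42 in control and 5.68, 5.75 and 5.99 in S153E-RKIP, and it fell by 0.59 (SE 0.086, limma adjusted p = 0.0158). All S153E-RKIP arrays were below all controls. The limma call was lost without control replicate 1 (adjusted p = 0.0981), control replicate 2 (0.0949), control replicate 3 (0.106), S153E-RKIP replicate 1 (0.0540) or S153E-RKIP replicate 2 (0.109). Of the other 5, none called, 209894_at had a difference of -0.39, 211355_x_at of -0.34 and 211356_x_at of -0.23. The last pair, 207255_at and 1556997_a_at, were dim, with differences of 0.07 and -0.01. Of 4 probe sets of LEPROT alone, 2 were called lower, 202377_at (difference -0.39, limma adjusted p = 0.0182) and 227095_at (-0.44, limma adjusted p = 0.0238). The other two, not called, were 202378_s_at (-0.30, limma adjusted p = 0.0614) and the dim 1556996_at (level 4.32, difference 0.09). LEPR alone was read by 1 probe set, 1556919_at, which was also dim (level 4.58, difference 0.05), so LEPR and LEPROT cannot be told apart in the shared fall.

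The remaining calls were smaller rises. AKIP1, a protein kinase A interacting protein, and NUAK2, a kinase related to AMPK, lie on different chromosomes and share 220987_s_at. It had 7.02, 7.16 and 7.08 in control and 7.69, 7.67 and 7.47 in S153E-RKIP, with no overlap (difference 0.52, SE 0.079, limma adjusted p = 0.0189). AKIP1 alone had differences of -0.13 and -0.03 in its 2 probe sets, neither called, and NUAK2 had no probe set of its own. The limma call of the shared probe set was lost without control replicate 1 (adjusted p = 0.127), control replicate 2 (0.0685), control replicate 3 (0.115), S153E-RKIP replicate 1 (0.0743) or S153E-RKIP replicate 2 (0.114). It was the sole call among 269 probe sets whose genes lie on more than 1 chromosome, beside 1.05% called over all probe sets.

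Long noncoding RNAs gave 2 calls. LINC00869 and LINC00623, read by 222001_x_at, had 9.28, 9.33 and 9.38 in control and 9.89, 9.82 and 9.79 in S153E-RKIP (difference 0.50, SE 0.062, limma adjusted p = 0.00698). LINC00623 alone, 229429_x_at, was called too (difference 0.55, limma adjusted p = 0.00421). LINC00869 alone had differences of -0.06, 0.32 and 0.13 in 3 probe sets, none called. The shared call was lost in limma without control replicate 1 (adjusted p = 0.0555) and without control replicate 2 (0.0503). LINC00511 and LINC00673, read by 227452_at, had 7.04, 7.25 and 7.20 in control and 7.51, 7.68 and 7.78 in S153E-RKIP (difference 0.50, SE 0.089, limma adjusted p = 0.0427). The groups did not overlap, but the limma call was lost without control replicate 1 (adjusted p = 0.197), control replicate 2 (0.123), control replicate 3 (0.161), S153E-RKIP replicate 2 (0.184) or S153E-RKIP replicate 3 (0.121). Another probe set of the same pair, 230812_at, had a difference of 0.06. LINC00673 alone, read by the dim 230858_at (level 4.74), was not called (difference 0.10, limma adjusted p = 0.570). LINC00511 had no probe set of its own.

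IGF2, a fetal growth factor, and the readthrough INS-IGF2 share 3 probe sets. 202409_at had 5.41, 5.40 and 5.42 in control and 5.78, 5.96 and 5.88 in S153E-RKIP (difference 0.47, SE 0.066, limma adjusted p = 0.0135). The groups did not overlap, and the control arrays differed little among themselves. Its mean level of 5.64 was near the median of all probe sets, 5.62. All its arrays were under 6, so the filter at that level left it untested. The limma call was lost without control replicate 1 (adjusted p = 0.0874), control replicate 2 (0.0888), control replicate 3 (0.0828), S153E-RKIP replicate 2 (0.0640) or S153E-RKIP replicate 3 (0.0619). The other probe sets of the pair, 202410_x_at and 210881_s_at, had differences of 0.26 and 0.02, neither called.

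**Figure D3:**
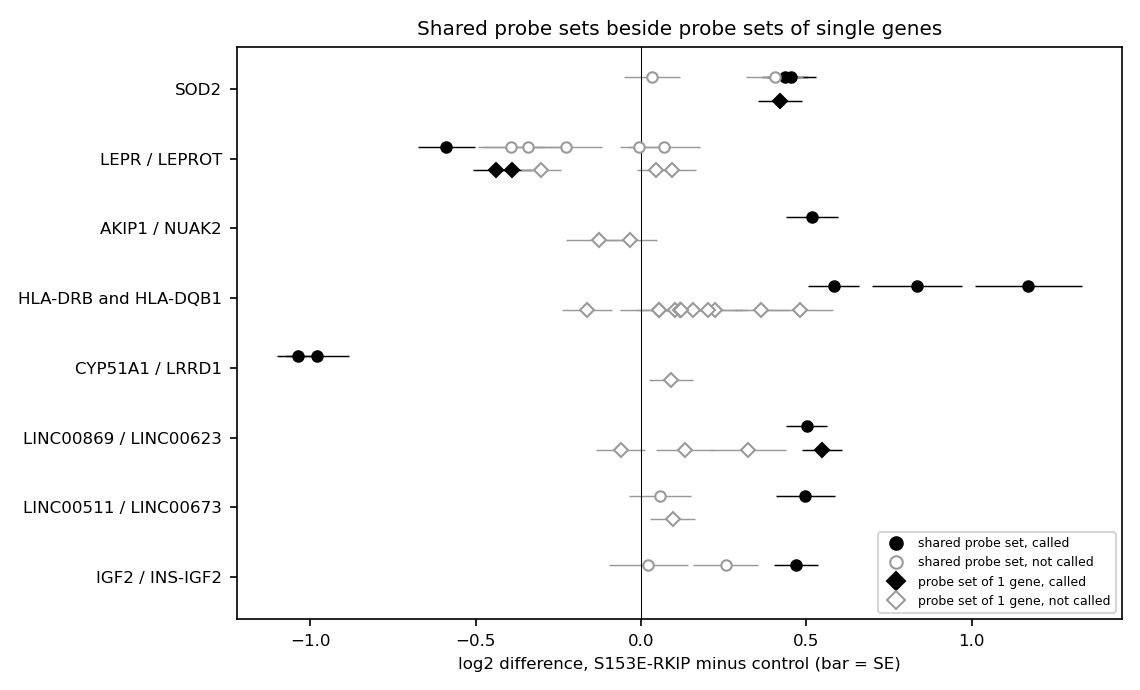
Log2 difference, S153E-RKIP minus control, with bars of 1 SE, for shared probe sets of called combinations (circles) and for probe sets that read only 1 of the genes (diamonds), filled where called. Called single-gene probe sets stand beside the shared ones for SOD2, LEPROT and LINC00623. None does for AKIP1, the HLA genes, LRRD1, LEPR, LINC00869 or LINC00673.

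The called combinations held 26 symbols, of which 15 had no probe set of their own. The other 11 had 25 such probe sets, of which 4 were called, all in the direction of the shared one.

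By the kind of sharing, the 678 probe sets whose symbols share their first 3 letters held 6 calls higher and 1 lower. The calls include LEPR/LEPROT, LINC00869/LINC00623 and LINC00511/LINC00673, and it was not checked which of these probe sets hold paralogs. Those with a small RNA, 363 in all, held 1 higher and 3 lower, and the 225 with a readthrough symbol held 2 higher. The 49 with an antisense or overlapping transcript, a class set by symbol endings, held 2 higher, and both are SOD2. By position, the genes overlapped in 18 of the 49. In 26 they lay on the same chromosome without overlap, and in 4 on more than 1 chromosome. Of 166 with a LOC symbol none was called at an adjusted p under 0.05 in limma, and 10 had an unadjusted p under 0.05. The last 320, with other names, held 1 higher and 2 lower. The 145 probe sets with 5 or more symbols, up to 15 in 1 probe set, held no call. Beside the 1.05% called over all probe sets, the lack of a call in sets this small says little. Probe sets whose name ends in _x_at, which may cross-hybridise, were 20.9% of the shared ones against 7.3% of those with 1 symbol, and 6 of the 18 calls were among them.

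Of the 34 gene groups looked for, 4 had a called probe set, 27 had members but no call, and 3 had no member. The 3 were metallothioneins, the Raf-MEK-ERK cascade with its output genes, and the LIN28, HMGA2 and let-7 axis. In all 413 of the shared probe sets fell in a group, with 12 of the 18 calls, beside 1.05% called over all probe sets. These 12 are the calls of serum amyloid A, SOD2, HLA class II, CYP51A1 and FADS1. The groups were chosen with earlier results known, so the count is no measure of how calls spread over gene groups.

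**Figure D4:**
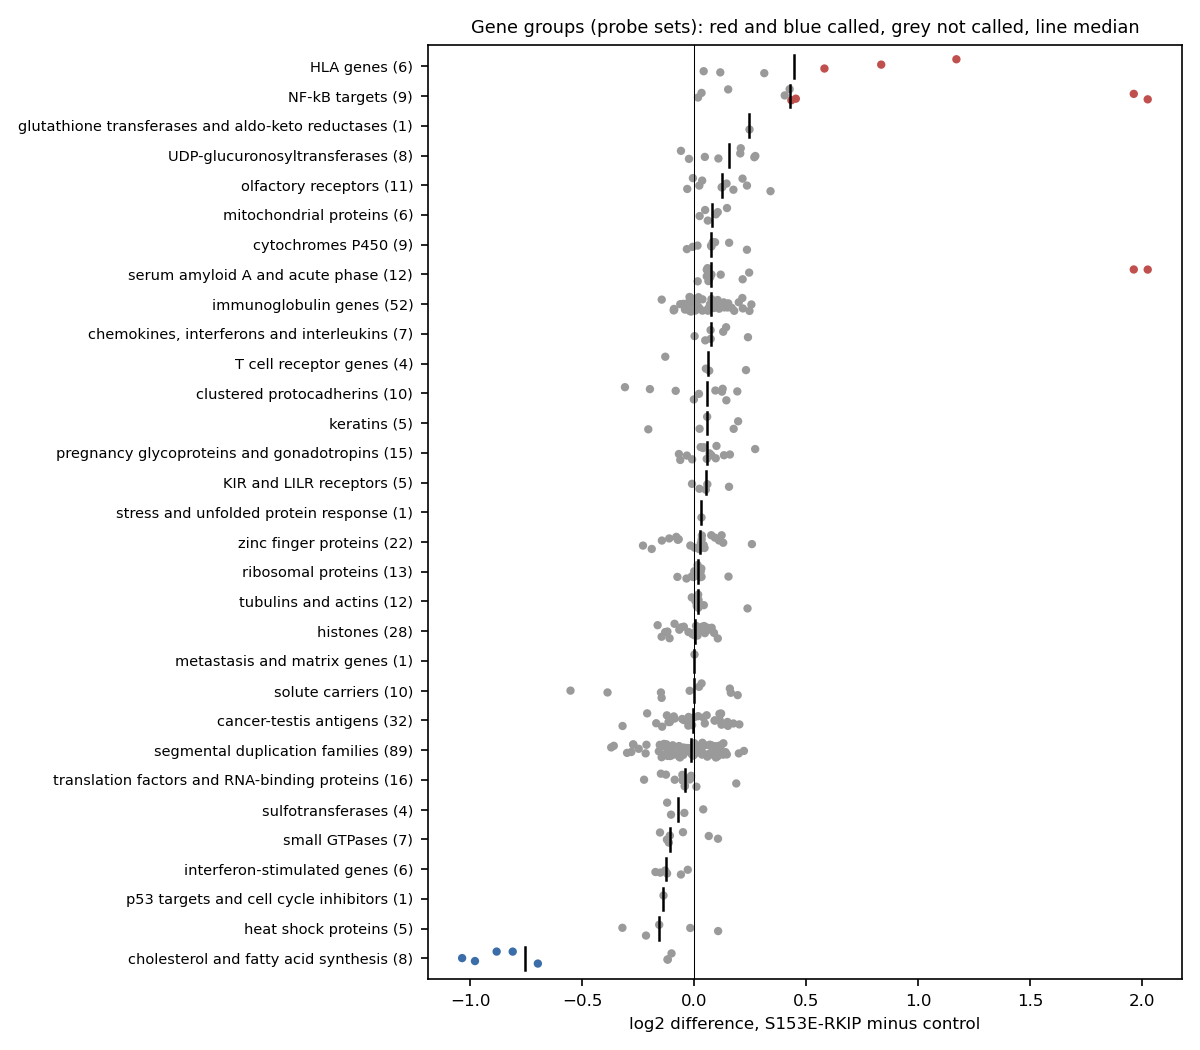
Log2 difference, S153E-RKIP minus control, of the probe sets in each gene group (number in brackets), with groups in order of their median (black bar). Red points were called higher, blue points called lower and grey points not called; the calls lie in the HLA, NF-kB, serum amyloid A, and cholesterol and fatty acid groups.

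Heat shock proteins came nearest to a call among the other groups. HSPA1A and HSPA1B, which encode the stress-induced chaperone HSP70, are read together by 200799_at. It had 11.14, 11.24 and 11.19 in control and 10.86, 10.89 and 10.84 in S153E-RKIP, with no overlap (difference -0.32, SE 0.060, limma adjusted p = 0.0503). 200800_s_at, which adds HSPA1L, had -0.21 and 202581_at had -0.16, and 0 of 5 in the group were called by limma, with 2 at an unadjusted p under 0.05. Others just past the threshold in limma were both probe sets of ZNF395 and FBXO16 (-0.34, adjusted p = 0.0503, and -0.31, adjusted p = 0.0699), TMSB15A/TMSB15B (-0.34, adjusted p = 0.0575) and UBXN6/MIR4746 (-0.30, adjusted p = 0.0922). Just inside it was LINC00511/LINC00673, described above. In all, 8 shared probe sets had an adjusted p from 0.05 to 0.1.

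Most tubulin and actin, ribosomal protein, histone and mitochondrial probe sets differed little between the groups. The 12 tubulin and actin probe sets had a median level of 13.89 and a median difference of 0.02, and ACTB/ACTG1, the cytoplasmic actins, had differences from -0.01 to 0.02. The largest of the 12 was TUBA3C/TUBA3D in 216323_x_at, without overlap (difference 0.24, limma adjusted p = 0.265). The 13 ribosomal protein probe sets had a median level of 13.72 and differences from -0.07 to 0.15, the last in RPL21 with SNORD102, SNORA27 and RPL21P28 (216479_at). In neither group was any called by limma, and 1 and 0 had an unadjusted p under 0.05. The 28 histone probe sets, from clusters of near-identical genes, had levels from 3.59 to 13.68, with a median of 7.70. Their differences ran from -0.16 to 0.11, and no histone probe set was called by limma or had an unadjusted p under 0.05. Mitochondrial proteins, with UQCRH/UQCRHL of the respiratory chain and TIMM23/TIMM23B of protein import, had 6 probe sets with differences from 0.02 to 0.15, none called.

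Immune receptor families were dim. The 52 immunoglobulin probe sets had a median level of 4.85, and IGKC/IGK (221651_x_at), with the smallest p, had 7.30, 7.38 and 7.39 in control and 7.63, 7.69 and 7.51 in S153E-RKIP (difference 0.26, limma adjusted p = 0.170). T cell receptor probe sets (4) and KIR and LILR receptors (5) had median levels of 4.14 and 4.50. In the 7 probe sets of chemokines, interferons and interleukins the smallest p was for XCL1/XCL2, with 3.83, 3.75 and 3.90 in control and 4.04, 4.10 and 4.06 in S153E-RKIP (difference 0.24, limma adjusted p = 0.164). None in these groups was called by limma, and an unadjusted p under 0.05 was found for 4 of immunoglobulins, 1 of T cell receptors, 0 of KIR and LILR receptors and 1 of the chemokine group. Interferon-stimulated genes had 6 probe sets with differences from -0.17 for IFITM1/IFITM2, membrane proteins that block virus entry, to -0.03, none called and 0 at an unadjusted p under 0.05 in limma.

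Gene families with tissue-restricted expression and segmental duplication families gave no call either. Of cancer-testis antigens, genes expressed in germ cells and some tumours, 0 of 32 were called by limma, with 4 at an unadjusted p under 0.05. MAGEA2/MAGEA2B (214603_at) had 4.58, 4.58 and 4.74 in control and 4.48, 4.21 and 4.25 in S153E-RKIP (difference -0.32, limma adjusted p = 0.168). Clustered protocadherins, neuronal adhesion molecules, were represented by 10, of which PCDHB10/PCDHB9 (223854_at) had the smallest p (difference -0.31, limma adjusted p = 0.177). UDP-glucuronosyltransferases, which conjugate drugs and bilirubin, had 8 with a median difference of 0.16, and 3 had an unadjusted p under 0.05. A probe set with 6 UGT1A symbols, 207126_x_at, had a difference of 0.21 (limma adjusted p = 0.307). Of 9 for cytochromes P450 and 11 for olfactory receptors none was called by limma, with 1 and 3 at an unadjusted p under 0.05. In segmental duplication families 0 of 89 were called by limma, and 10 had an unadjusted p under 0.05. SRGAP2 with its human-specific copies SRGAP2B and SRGAP2C (213329_at) had the smallest p, with 7.11, 7.03 and 7.07 in control and 6.65, 6.88 and 6.86 in S153E-RKIP (difference -0.27, limma adjusted p = 0.186).

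Solute carriers had 10 shared probe sets. SLC2A3 and SLC2A14, glucose transporters of a duplicated pair, were read by 216236_s_at, with 7.69, 7.98 and 7.86 in control and 7.29, 7.57 and 7.50 in S153E-RKIP (difference -0.39, limma adjusted p = 0.145). In 222088_s_at the same pair had 7.12, 7.24 and 7.03 in control and 6.23, 6.82 and 6.69 in S153E-RKIP (difference -0.55, limma adjusted p = 0.151). In neither did the groups overlap, and in both S153E-RKIP replicate 1 was the lowest array.

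In several of the largest uncalled differences S153E-RKIP replicate 1, the array that the second component set apart, lay far from replicates 2 and 3, and these were chosen after their values were seen. HBA1 and HBA2, the alpha globin genes, were read by 6 probe sets, and replicate 1 was the highest of all arrays in 6 of the 6. 214414_x_at had 3.96, 4.17 and 4.21 in control and 6.16, 4.14 and 4.14 in S153E-RKIP (difference 0.70, SE 0.465, limma adjusted p = 0.545). 204018_x_at had 5.96, 5.96 and 5.99 in control and 7.05, 6.11 and 5.95 in S153E-RKIP (difference 0.40, limma adjusted p = 0.509). NEAT1, the noncoding RNA that builds nuclear paraspeckles, shares 9 probe sets with MIR612, and replicate 1 was the lowest of all arrays in 5. 224566_at had 9.53, 9.93 and 9.84 in control and 8.51, 9.62 and 9.50 in S153E-RKIP (difference -0.56, SE 0.259, limma adjusted p = 0.399). 224565_at had 9.65, 10.05 and 9.77 in control and 8.67, 9.68 and 9.48 in S153E-RKIP (difference -0.55, limma adjusted p = 0.361). In 239269_at the same pair went the other way, without overlap. It had 6.26, 6.41 and 6.43 in control and 6.56, 6.62 and 6.64 in S153E-RKIP (difference 0.24, limma adjusted p = 0.197). The dim 220983_s_at had a difference of 0.04. KLRC1/KLRC2, receptors of natural killer cells (206785_s_at), had 5.30, 6.11 and 5.61 in control and 5.11, 6.80 and 6.84 in S153E-RKIP (difference 0.58, limma adjusted p = 0.581), so its rise lay in replicates 2 and 3 and replicate 1 was the lowest array. None of these was called, and the part of that array's preparation in them was not tested.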

How the data were processed

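Total RNA of 6 samples was hybridised to HG-U133 Plus 2.0 arrays. The deposited values are log2 signals, 1 per probe set and array, and per the submitters' processing notes the authors made them with RMA. That method subtracts background, equalises the distributions of the arrays and summarises probes. Its version is not given in the sources used. The labels' protocols name a labelling kit for whole transcripts, while this array type reads mainly the 3' ends. The values were used as deposited. Array medians ran from 5.60 to 5.67, and 0 arrays were duplicates.

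The table has 54675 probe sets, of which 62 controls were left out. Gene names came from the platform annotation. Of 4776 gene identifiers among the shared probe sets, 4737 matched the RefSeq table (GRCh38.p14), and 0 symbols changed. Groups came from the sample titles. A linear model was fitted to each probe set in limma 3.58.1 under R 4.3.3 (lmFit, eBayes without trend, two-sided) over 54613 probe sets, with Benjamini-Hochberg adjustment over all of them. Probe sets with an adjusted p under 0.05 were called. Intervals are 95% intervals from the moderated variance.

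The probe sets, gene groups and tests were chosen with earlier results of these data known. The probe sets named are the 10 largest rises and 10 largest falls among calls without overlap, up to 3 called per gene group, the one with the smallest p in groups without a call, and the called one with the smallest p in each class of sharing. It gave 44 probe sets. A family group needed at least 2 matching symbols and a theme group any. The pattern for keratins found only keratin-associated genes, and that for small GTPases also took in the homeobox pair RHOXF2/RHOXF2B. The pattern for acute phase genes also took in Fc gamma receptor genes. Tested on simulated data for this comparison over 54613 probe sets, the fit called 15 of 50 changed 1.3-fold, 31 of 50 changed 1.5-fold, 44 of 50 changed 2-fold, 50 of 50 changed 4-fold and 4 of 54413 unchanged. The simulated noise was drawn independently for each probe set and array, with no effect shared across an array. Real arrays may hold such effects, so these counts may not carry over to them. The alternatives were a replicate block, a repeat of quantile normalisation, a robust eBayes with trend, equal medians, array weights, a stricter threshold, both dim-signal filters, no _x_at probe sets, loess removal of the intensity trend, symbols only, 1 probe set per combination, and each array left out in turn. Sequences were read from RefSeq tables, and promoters were aligned with Biopython 1.88. Figures were drawn with matplotlib 3.10.9.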

Additional observations from a re-analysis of the deposited data

How the results depend on the processing

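None of the 18 called probe sets changed direction under any alternative run. Of the 27 named and not called, 2 changed sign near 0: ID2/ID2B (213931_at, 0.0012, but -0.036 with equal medians, -0.032 with quantile normalisation again, -0.031 with loess and -0.0027 with array weights, and -0.023 to 0.039 with 1 array left out) and PHGDH/MZT2B/MZT2A (212995_x_at, 0.031, but -0.0059 with equal medians and -0.030 without S153E-RKIP replicate 1). The count of 18 called (12 higher, 6 lower, 5 at least 2-fold) moved by over 1.5 times as follows. Lower calls were 11 with equal medians, 12 with the filter at the median level and 13 with the filter at a level of 6 on at least 3 arrays. With trend and robust estimation 28 were called, 13 of them lower. At an adjusted p under 0.01 in limma there were 9, 4 of them higher. Without _x_at probe sets 7 were higher and 3 were at least 2-fold, since fewer were tested, and with 1 probe set per combination 2 were lower for the same reason. With each array left out in turn, 8 to 18 were called, 3 to 12 higher and 5 to 9 lower, and 3 to 6 were at least 2-fold. Fewest were called without control replicate 1, and 10 of the 18 calls were lost in at least 1 of these fits. For the other changes the cause was not tested. Over all probe sets, 1.39% were called with equal medians and 1.72% with trend and robust estimation.

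HSPA1A/HSPA1B (200799_at), not called, passed in limma with equal medians (adjusted p = 0.0252), trend and robust estimation (0.00347), array weights (0.0495) and the filters (0.0211 and 0.0170). SLC2A3/SLC2A14 (216236_s_at) passed with the replicate block (0.0474). That replicate block gave 19 called (12 higher, 7 lower), with the 18 among them. Same-numbered arrays had correlations of deviations of 0.086, 0.187 and -0.022 over all probe sets. Some arrays correlated best with their own number and others did not. With so few arrays, these correlations cannot show whether same-numbered arrays were made together, and the labels do not say. The number of arrays limits the precision: the median width of the 95% interval of a difference was 0.348.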
